A study of Oryza sativa with 36 samples.

Results

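The rice Hox genes are homeobox transcription factor genes, most of them of the homeodomain-leucine zipper (HD-Zip) family. They were followed in leaves of rice seedlings chilled at 4 °C. Members were chosen by name alone: every gene that the RefSeq annotation of rice gives the synonym Hox with a number, 27 genes in all. Of these, 26 had a probe set assigned to them alone, among 17905 genes and 57258 probe sets on the array. HOX3 had none and was not analysed here. By textbook classification, which was assigned by hand and is in none of the files, the 26 genes comprised 12 of HD-Zip class I, 8 of class II and 5 of class III. The remaining gene, HOX1A, encodes a homeodomain protein without a leucine zipper and is given apart. Where a gene had more than 1 probe set, which was so for 6 of the 26, the brightest was used.

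The arrays compared LTH (Li-Jiang-Xin-Tuan-Hei-Gu), a chilling-tolerant japonica landrace, with IR29, a chilling-sensitive indica cultivar. Leaves were taken from soil-grown S3-stage seedlings, and each of the 12 groups held 3 biological replicates, 36 arrays in all. For each genotype the groups were chilled seedlings held at 4 °C for 2, 8, 24 or 48 h, seedlings returned to 29 °C for 24 h after 48 h of chilling (recovery), and controls kept at 29 °C. The labels give 1 control group per genotype, so time of day and chilling cannot be told apart for a gene that follows the clock, and the 5 comparisons within a genotype share the same 3 control arrays.

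A homeodomain binds DNA, and the adjoining leucine zipper of HD-Zip proteins pairs 2 of them, which lets them recognise a nearly palindromic site. Class I genes are known mainly from responses to drought, cold and abscisic acid (ABA) and from organ growth. Class II proteins are mostly repressors and include the genes of the shade response. Class III genes act in the shoot meristem, in the upper side of the leaf and in vascular tissue, and their transcripts are targets of a conserved microRNA family.

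Values are linear array intensities as the authors normalized them. Array medians lay between 9.81 and 11.16, and the correlation of log2 values between replicates of a group was 0.913 to 0.977. A probe set was called changed when limma gave a Benjamini-Hochberg adjusted p below 0.05 over all 57258 probe sets and the change was at least 2-fold. Every adjusted p given here comes from that model. A change is the log2 fold change, with its standard error (SE). No gene was read from an absolute detection call, and values of different genes are not on a common scale per transcript. In bulk leaf RNA, fewer cells of a type and less RNA per cell cannot be told apart.

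Leaf photosynthesis genes fit the labelled tissue on every array, with the summed level of RBCS, CAB2R and RCA at 6423 or above. The summed level of 2 root genes, PHT1;2 and PT6, ran from 7.73 to 91.9, on no common scale with the leaf genes. Genes of the shoot meristem set some arrays apart. The summed level of 4 meristem genes (OSH1, OSH6, OSH43 and OSH71) was 189 on replicate 3 of LTH after 8 h, against 39.4 and 31.5 on the other arrays of that group. It was 268 on replicate 2 of LTH after 24 h, against 15.5 and 19.2, 117 on replicate 3 of LTH after 48 h, against 20.7 and 47.4, and 179 on replicate 2 of LTH recovery, against 11.3 and 17.9. In IR29 after 8 h it was 274 to 290 on all 3 arrays, against 26.6 to 48.7 in the IR29 control. It was 17.3 to 21.5 in LTH after 2 h, against 49.6 to 106 in the LTH control. No value on the arrays was 0. Results that involve these arrays are given below with and without the 4 LTH arrays, which were singled out after the data were seen as those over 2 times both other arrays of their group.

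**Figure D1:**
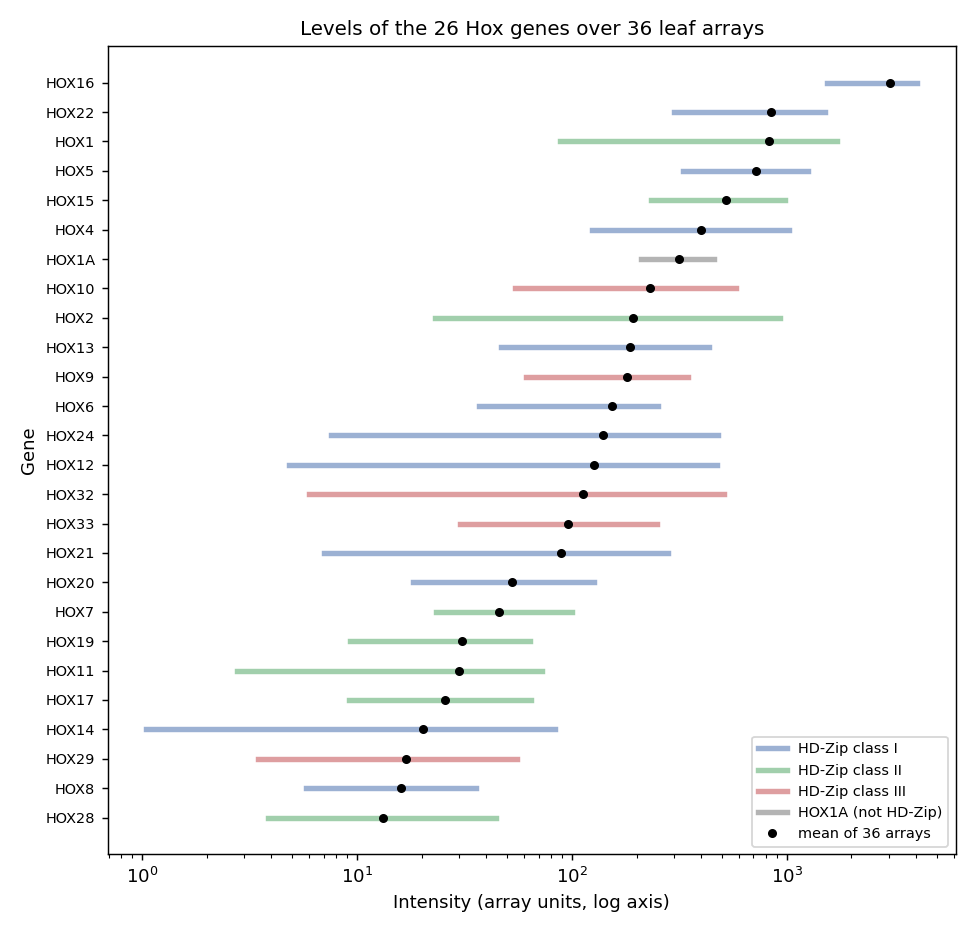
Intensity of each Hox gene over the 36 arrays on a log axis, 1 row per gene, with the bar running from the lowest to the highest array, the point at the mean of 36 arrays and the colour giving the HD-Zip class. HOX16 was the brightest at a mean of 3036 and HOX28 the dimmest at 13.2, and the bars of HOX14, HOX12, HOX24 and HOX32 are the long ones.

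The Hox genes had means from 13.2 (HOX28) to 3036 (HOX16) over all arrays. In LTH, 3 of the 26 were called higher and 3 lower after 2 h of chilling, where 6.99% of all probe sets were higher and 6.62% lower, 13.6% in either direction. After 8 h 7 were higher and 1 lower, where 7.26% of all probe sets were higher and 6.5% lower, 13.8% in either direction. After 24 h 5 were higher and 2 lower, where 9.46% of all probe sets were higher and 10.9% lower, 20.4% in either direction. After 48 h 6 were higher and 2 lower, where 12.3% of all probe sets were higher and 13.1% lower, 25.5% in either direction. In LTH 12 of the 26 were called at 1 or more of the 4 chilling times (8 of 12 in class I, 2 of 8 in class II and 2 of 5 in class III), where 32.1% of all probe sets were.

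In IR29, 1 was higher and 2 were lower after 2 h, where 7.05% of all probe sets were higher and 9.49% lower, 16.5% in either direction. At 8 h 6 were higher and 2 lower, where 7.24% of all probe sets were higher and 7.98% lower, 15.2% in either direction. At 24 h 4 were higher and 2 lower, where 8.54% of all probe sets were higher and 11.4% lower, 19.9% in either direction. At 48 h 7 were higher and 2 lower, where 10.6% of all probe sets were higher and 13.8% lower, 24.4% in either direction. In IR29 11 of the 26 were called at 1 or more chilling times (5 in class I, 4 in class II and 2 in class III), where 33.7% of all probe sets were. The members called at all 4 times in the same direction were HOX22, HOX24 (higher) and HOX20 (lower) in LTH, where 7.75% of all probe sets were, and HOX12 (higher), HOX4 and HOX20 (lower) in IR29, where 7.45% were. Over the 10 comparisons with a control, 20 of the 26 were called at least once, where 52% of all probe sets were. Rises outnumbered falls from 8 h on in both genotypes. Members were brighter than most probe sets. The 27934 probe sets at least as bright as the dimmest Hox gene gave a second background. In LTH it was 22.8%, 23.1%, 32.8% and 39.7% called after 2, 8, 24 and 48 h. The Hox genes were at 23.1%, 30.8%, 26.9% and 30.8%. In IR29 it was 26.9%, 24.6%, 31.3% and 37.3%, with the Hox genes at 11.5%, 30.8%, 23.1% and 34.6%. The Hox share lay above this background at 8 h in both genotypes, near it in LTH at 2 h and below it otherwise. The totals over several times were not set against it.

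Recovery differed in count between the genotypes, for the Hox genes and for all probe sets alike. Among probe sets at least as bright as the dimmest Hox gene, 4.55% were called in LTH recovery and 31.3% in IR29 recovery. The shares of the Hox genes were 3.85% and 38.5%. Only HOX11 was called in LTH recovery against the LTH control (1 lower, where 1.22% of all probe sets were lower, 1.35% higher and 2.56% called in either direction), whereas 10 of 26 were called in IR29 recovery against the IR29 control (2 higher, 8 lower, where 8.94% of all probe sets were higher, 11.7% lower and 20.7% called in either direction). Without replicate 2 of LTH recovery, which was high in meristem genes, 3 Hox genes were called in LTH recovery. With all 4 such LTH arrays left out 6 were called, all lower: HOX11, HOX21, HOX28, HOX29, HOX32 and HOX33, where 2.65% of all probe sets were lower in that fit, 1.28% higher and 3.94% called in either direction. HOX21, HOX28, HOX32 and HOX33 had their highest LTH recovery value on the array left out, so the choice itself lowered their recovery level. It also moved the change of HOX29 from -0.92 to -1.60 and that of HOX32 from -0.60 to -1.03. Over all fits without 1 array the number in LTH recovery ran from 0 to 3.

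**Figure D2:**
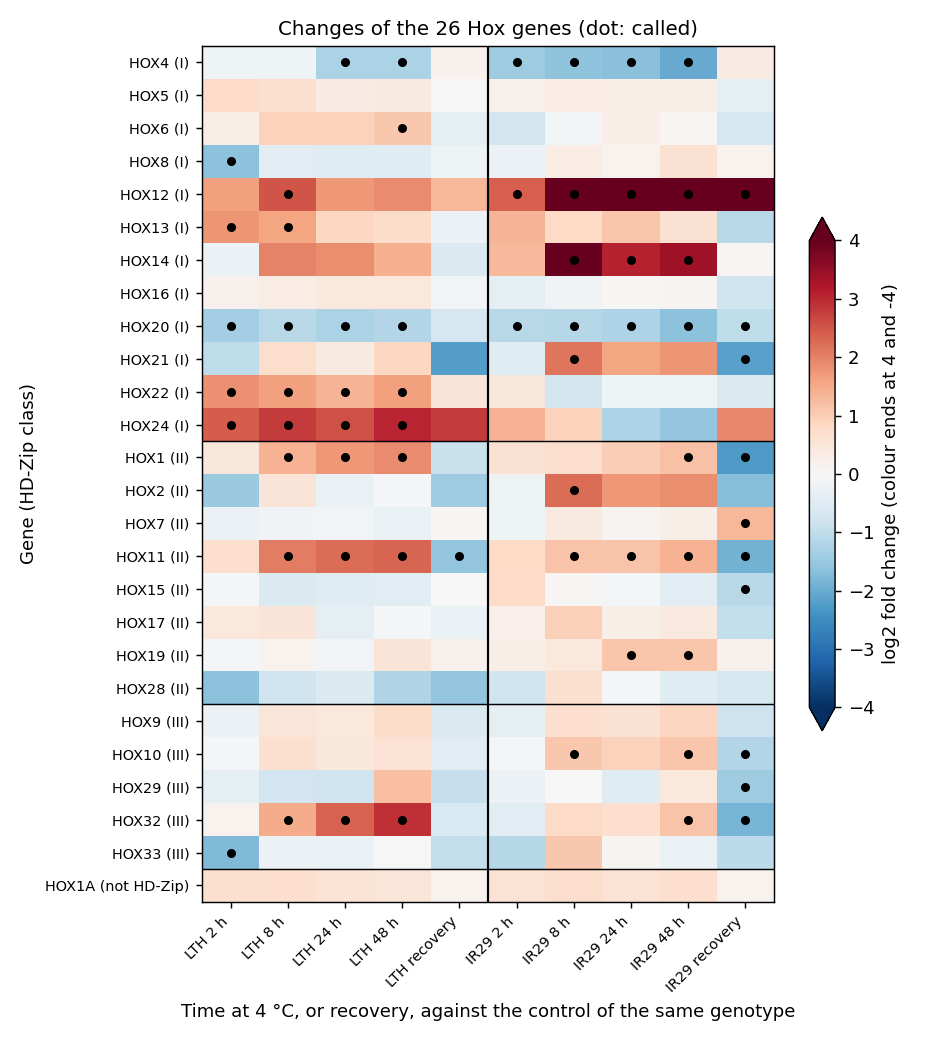
Log2 fold change of each of the 26 Hox genes (rows, grouped by HD-Zip class) in the 10 comparisons of a chilled or recovery group with the control of its genotype (columns, LTH left and IR29 right), with red for higher, blue for lower and a black dot where the change was called. HOX20 carries dots at all 4 chilling times in both genotypes, HOX22 and HOX24 only in the LTH columns, and the IR29 recovery column holds 8 of the blue calls.

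Among class I genes, HOX22 separated the genotypes already without chilling. HOX22 is known in rice as a drought-related gene that affects ABA content and sensitivity. Its intensity was 298, 368 and 335 in LTH controls and 892, 855 and 1099.6 in IR29 controls, so that the groups did not overlap and LTH lay lower (-1.5 ± 0.23, adjusted p = 1.5e-05). It was the 1 Hox gene called between the controls, where 3.44% of all probe sets were lower in LTH, 4.07% higher and 7.5% called in either direction. A difference in level between genotypes cannot be told apart from a difference in how their transcripts bind the probes.

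On chilling HOX22 rose in LTH and stayed up. LTH values were 1156, 1256 and 1109.9 after 2 h, 999, 1278 and 892 after 8 h, 703, 648 and 1393 after 24 h, 815, 1188 and 1175 after 48 h and 475, 552 and 398 after recovery. Every chilled LTH array lay above all 3 control arrays, and recovery values also lay above them though the change there was not called (0.50, adjusted p = 0.32). The rise was 1.82 ± 0.23 after 2 h (adjusted p = 6.8e-07), 1.65 after 8 h, 1.37 after 24 h and 1.65 after 48 h (adjusted p at most 2.5e-05).

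No such rise was called for HOX22 in IR29. IR29 values were 1123, 1291 and 1510 after 2 h, 417, 719.9 and 627 after 8 h, 815, 832 and 884 after 24 h, 739, 1113 and 679 after 48 h and 662, 666 and 573 after recovery. No IR29 comparison was called. The 2 h arrays all lay above the IR29 controls (0.46, adjusted p = 0.16), and the 8 h arrays all lay below them (-0.72, adjusted p = 0.022, short of 2-fold). The IR29 recovery arrays, at 573 to 666, also all lay below the IR29 controls. After 8 h the chilled levels did not overlap, with LTH at 892 to 1278 and IR29 at 417 to 719.9. After 48 h they overlapped, with LTH at 815 to 1188 and IR29 at 679 to 1113. They also overlapped after 2 h, with LTH at 1109.9 to 1256 and IR29 at 1123 to 1510. The same held after 24 h, with LTH at 648 to 1393 and IR29 at 815 to 884. Recovery levels did not overlap, with LTH at 398 to 552, below IR29 at 573 to 666. The LTH rise started from controls at 298 to 368, while IR29 controls already lay at 855 to 1099.6.

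HOX24, a close relative of HOX22, was also called higher in LTH alone when all arrays were used, with more spread between arrays. LTH values were 19.3, 25.6 and 20.6 in controls, 89.5, 126 and 140.2 after 2 h, 50.9, 230.1 and 297 after 8 h, 65.4, 106 and 293 after 24 h, 93.8, 391 and 157 after 48 h and 83.7, 221 and 184 after recovery. All 15 treated LTH arrays lay above the controls, and HOX24 was called higher at all 4 chilling times (2.43, 2.81, 2.55 and 3.05), with an adjusted p of 0.0052 after 48 h. The rise after 48 h was called whichever array was left out (adjusted p up to 0.045), whereas that after 2 h was lost without any 1 of the 6 arrays (adjusted p up to 0.11). The rise after 8 h was lost without LTH control replicate 1 or LTH 8 h replicate 2 or 3 (adjusted p up to 0.088), and that after 24 h without LTH control replicate 1 or 3 or LTH 24 h replicate 3 (up to 0.14).

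In IR29, HOX24 varied between times. IR29 values were 84.6, 62.8 and 48.5 in controls, 24.9, 379.9 and 477 after 2 h, 60.2, 111 and 263 after 8 h, 15.7, 42.5 and 29.9 after 24 h, 18.1, 7.57 and 75.8 after 48 h and 278, 175 and 282 after recovery. The 24 h arrays all lay below the control arrays and the recovery arrays all above them, and neither difference was called (-1.23, adjusted p = 0.32, and 1.91, adjusted p = 0.097). At 2 h the IR29 arrays spread from 24.9 to 477, and without IR29 2 h replicate 1 (24.9) HOX24 was called higher in IR29 at that time. Without IR29 48 h replicate 3 (75.8) it was called lower in IR29 after 48 h.

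**Figure D3:**
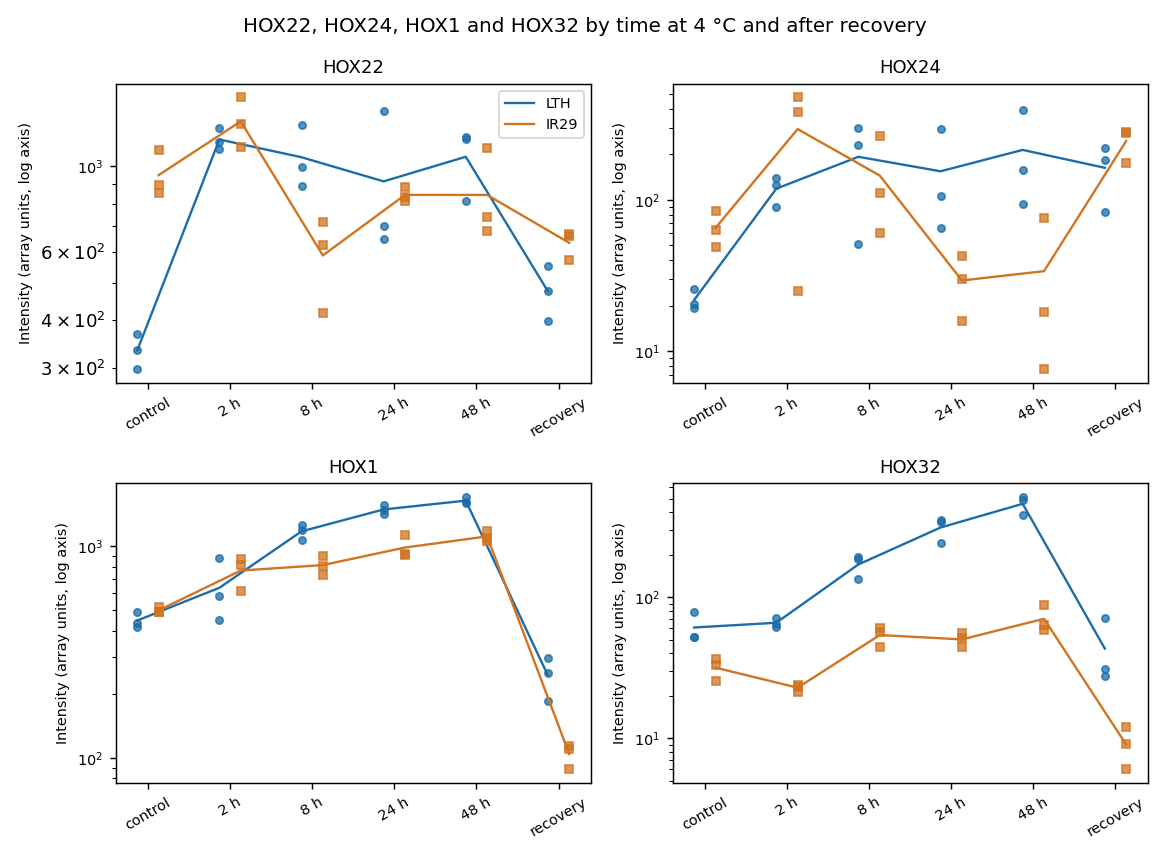
Intensity (log axis) of HOX22, HOX24, HOX1 and HOX32 on each array by time at 4 °C and after recovery, with LTH in blue circles to the left and IR29 in orange squares to the right at each time, and lines through the group means of 3 arrays. HOX22 starts lower in LTH, HOX24 lies higher in LTH after 24 h and 48 h, and HOX1 and HOX32 climb in LTH to 48 h and drop in recovery.

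HOX12 and HOX14 had the steepest rises of the family, and these were in IR29. HOX12 is known in rice for its part in panicle exsertion through gibberellin breakdown. LTH values of HOX12 were 23.4, 33 and 21.3 in controls, 123, 67.6 and 59.3 after 2 h, 130.3, 60.4 and 397 after 8 h, 53.5, 220.4 and 52.6 after 24 h, 36.9, 85 and 268 after 48 h and 23.2, 223 and 51.7 after recovery. All chilled LTH arrays lay above the LTH controls, and only the 8 h change was called (2.52, adjusted p = 0.025). That call was lost without LTH control replicate 1 or 3 or LTH 8 h replicate 1 or 3 (adjusted p up to 0.17).

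IR29 values of HOX12 were 5.82, 15.9 and 4.81 in controls, 60.8, 43.3 and 23.7 after 2 h, 260.2, 246 and 279 after 8 h, 128, 153 and 148 after 24 h, 161, 48.6 and 475 after 48 h and 371, 124 and 66.2 after recovery. No treated array overlapped the controls, and all 5 changes were called, with 5.10 ± 0.82 after 8 h (adjusted p = 2e-05) and 4.25 in recovery (adjusted p = 0.00014). The 2 h call (2.38) was lost in 4 of 6 fits that left out 1 array (IR29 control replicate 1 or 3, IR29 2 h replicate 1 or 2), with an adjusted p up to 0.12. The genotype difference in the response of HOX12 was not called at any time with all arrays, at -2.57 after 8 h (95% interval -4.93 to -0.21, adjusted p = 0.28). Without the 4 LTH arrays high in meristem genes it was called at 8 h (-3.29), 24 h (-3.16), 48 h (-3.20) and recovery (-3.80, adjusted p = 0.0058). Those arrays held the highest HOX12 value of their groups, so leaving them out itself lowered the LTH levels. No IR29 array was left out, so these calls are no separate evidence of a genotype difference.

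HOX14, a gene linked to panicle development, was dim in the IR29 control at 3.36, 1.65 and 2.33. It reached 58.6, 83.9 and 72.4 in IR29 after 8 h (4.92 ± 0.96, adjusted p = 0.00026), 14.8, 25.3 and 20.8 after 24 h and 23.9, 10.1 and 61.9 after 48 h, and was back at 1.73, 2.67 and 3.33 after recovery. The control values lay below the median of their arrays, so the size of this change rests on dim values, though raising the floor to 3.16 left it called. The 24 h call (3.08) was lost without IR29 control replicate 2 or IR29 24 h replicate 2 and the 48 h call (3.39) without IR29 48 h replicate 3 (adjusted p up to 0.058 and 0.05). In LTH no change of HOX14 was called, and the high values were those of the arrays high in meristem genes: 79.2 after 8 h, 56.4 after 24 h, 59.9 after 48 h and 22.9 in recovery.

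HOX21 followed the same arrays. It was 224, 148 and 229.7 in IR29 after 8 h against 36.4, 87 and 27.6 in the IR29 control (2.15, adjusted p = 0.023, lost in 4 of 6 fits without 1 array, namely IR29 control or 8 h replicates 1 or 3, with an adjusted p up to 0.12). In IR29 recovery it fell to 9.62, 7.97 and 12.2 (-2.18, adjusted p = 0.017), and this call was lost without IR29 control replicate 2 or IR29 recovery replicate 2 (adjusted p up to 0.11). LTH recovery gave 7.07, 40.2 and 7.68 against 72.2, 71.6 and 41.2 in the LTH control, a change of -2.20 that was not called (adjusted p = 0.081).

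HOX20 and HOX4 went the other way. HOX20 was lower at every chilling time in both genotypes, with log2 changes between -1.37 and -1.11 for LTH, and between -1.64 and -1.12 for IR29. After 48 h it was 39.3, 64.7 and 36.1 in chilled LTH against 126, 93.8 and 91.3 in the LTH control, and 45.2, 18.3 and 27.2 in chilled IR29 against 101, 69.5 and 96.8 in the IR29 control (adjusted p = 0.0038 and 0.00013). No chilled array reached the controls of its genotype. HOX20 stayed lower in IR29 recovery (-1.01, adjusted p = 0.016), a call lost without IR29 control replicate 1 or 3 or IR29 recovery replicate 3 (up to 0.14), while LTH recovery was at 53.6, 58.1 and 83.9. The calls after 8 h in LTH and after 2 h in IR29 were each lost without 1 array (LTH control replicate 1 and IR29 2 h replicate 3, adjusted p = 0.066 and 0.1). The second probe set of HOX20 had the same sign at every chilling time. It was not called in LTH after 2 h (-0.94, adjusted p = 0.11) or 8 h (-0.56, adjusted p = 0.41), or in IR29 after 8 h (-1.04, adjusted p = 0.067).

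HOX4, which is known in rice to respond to gibberellin and to affect stature, fell at all 4 times in IR29 and from 24 h in LTH. In LTH it was 155, 224 and 243 after 48 h against 598, 452 and 432 in the control (-1.26, adjusted p = 0.0082). In IR29 it was 125, 238 and 149 after 48 h against 608, 616 and 789 in the control (-2.02 ± 0.37, adjusted p = 6.8e-05). Values were 545, 465 and 674 for LTH recovery, with IR29 recovery at 736, 1029 and 777, and neither change was called. Calls of HOX4 were lost without IR29 2 h replicate 3 (2 h in IR29), LTH control or 24 h replicate 1 (24 h in LTH) and LTH 48 h replicate 1 (48 h in LTH), with adjusted p up to 0.079, 0.085 and 0.054.

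The remaining class I calls were all in LTH. HOX13 rose in LTH after 2 h (1.75, adjusted p = 0.019) and 8 h (1.59), calls lost in 3 of 6 fits without 1 array at 2 h (LTH control replicate 1 or 3, LTH 2 h replicate 1) and 5 of 6 at 8 h (any LTH control, LTH 8 h replicate 2 or 3). Its IR29 change after 2 h was 1.34 (adjusted p = 0.072). HOX8 fell in LTH after 2 h, to 8.82, 6.32 and 5.79 against 20.8, 27.6 and 17.5 in the control (-1.65, adjusted p = 0.00067). HOX6 rose in LTH after 48 h (1.09, adjusted p = 0.04), lost in 4 of 6 fits without 1 array (LTH control replicate 1 or 3, LTH 48 h replicate 1 or 2). HOX16 and HOX5, the brightest and a further bright class I gene, were never called with their brightest probe sets. In IR29 recovery HOX16 changed by -0.80 (adjusted p = 1.1e-06), short of 2-fold, and its second probe set was called lower (-1.35, adjusted p = 3.6e-08). HOX5 was nonetheless 0.76 higher in LTH after 2 h (adjusted p = 1e-04), at 1227, 1126 and 1256 against 708, 681 and 737 in the control, a tight difference short of 2-fold.

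Among class II genes, HOX1 and HOX11 rose during chilling and lay below the control in recovery. HOX1, a repressor studied in rice vascular development and tiller angle, was 489.9, 416 and 433 in LTH controls, 880.2, 584 and 448 after 2 h, 1262, 1199 and 1073 after 8 h, 1577, 1422 and 1486 after 24 h, 1712, 1606 and 1619 after 48 h and 252, 186 and 298 after recovery. LTH arrays from 8 h to 48 h all lay above the controls (1.89 ± 0.18 after 48 h, adjusted p = 8.2e-10), and the recovery arrays all lay below them (-0.89, adjusted p = 0.0026, short of 2-fold).

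IR29 values of HOX1 were 489, 487 and 518 in controls, 813, 875 and 618 after 2 h, 734, 905 and 809 after 8 h, 921, 1135 and 907 after 24 h, 1100.2, 1188 and 1055 after 48 h and 114, 111 and 88.3 after recovery. Every chilled IR29 array lay above the controls, and the change passed 2-fold after 48 h (1.16, adjusted p = 5e-06). The recovery change of -2.27 ± 0.18 (adjusted p = 3.1e-11) had the smallest adjusted p of any Hox gene in the 10 comparisons with a control. These 5 calls of HOX1 held whichever array was left out.

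HOX11 was dim and had the same course. LTH values were 12.7, 14.7 and 11.9 in controls, 35.1, 28.4 and 8.86 after 2 h, 53.1, 58.8 and 51.8 after 8 h, 64.7, 50.3 and 70.7 after 24 h, 60.2, 65.5 and 72.3 after 48 h and 5.09, 3.65 and 4.52 after recovery. IR29 values were 19.5, 13.9 and 8.2 in controls, 25.7, 28.6 and 15.5 after 2 h, 25.9, 33.7 and 27.1 after 8 h, 24.8, 36 and 26.4 after 24 h, 22.7, 45.2 and 38.3 after 48 h and 3.78, 4.09 and 2.77 after recovery. From 8 h to 48 h no chilled array overlapped the controls of its genotype, and no recovery array did. After 48 h HOX11 had risen by 2.33 in LTH (adjusted p = 5.3e-06), and by 1.38 in IR29 leaves (adjusted p = 0.0032). In recovery its change was -1.58 in LTH (adjusted p = 0.0095), and IR29 leaves gave -1.90 (adjusted p = 0.00013). LTH and IR29 did not differ by the test in the 48 h change of HOX11, at 0.95 (95% interval -0.10 to 2.00, adjusted p = 0.28). The LTH recovery call was lost without LTH control replicate 2 (adjusted p = 0.057), and the IR29 calls after 8 h and 24 h without IR29 control replicate 3 or the replicate 2 of their own group (up to 0.18 and 0.15).

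HOX2 is the next protein-coding gene after HOX28 in the RefSeq annotation, and both varied with the arrays high in meristem genes. HOX2 was 439, 331 and 406 in IR29 after 8 h against 84.9, 150.1 and 45.8 in the IR29 control (2.22 ± 0.76, adjusted p = 0.032). The call was lost in 5 of 6 fits without 1 array (all but IR29 control replicate 2), with an adjusted p up to 0.16. In LTH after 24 h HOX2 stood at 55.4, 929 and 44.2 against 182, 181 and 123 in the control, with a change of -0.28 that became -1.69 (adjusted p = 0.011) without the arrays high in meristem genes. HOX28 was not called in any comparison with all arrays. Its LTH values after 8 h were 6.26, 7.19 and 44.2 against 20.3, 23.8 and 21 in the control, and without those arrays its change was -1.69 (adjusted p = 0.013).

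HOX7 rose and HOX15 fell in IR29 recovery. HOX7 was 48.4, 52.5 and 52.6 in LTH recovery against 58.2, 46.1 and 42.1 in the LTH control, and 100.4, 88.4 and 72.9 in IR29 recovery against 43, 41.9 and 23.4 in the IR29 control (1.31 ± 0.23, adjusted p = 5.4e-05). HOX15 was 599, 584 and 676 in LTH recovery against 679, 573 and 575 in the LTH control, and 234, 239.8 and 250.2 in IR29 recovery against 553, 502 and 522 in the IR29 control (-1.12 ± 0.20, adjusted p = 5.4e-05). In both genes the IR29 groups did not overlap and the LTH groups did. HOX19 rose in IR29 after 24 h and 48 h (1.11 and 1.10), calls lost without IR29 control replicate 2 or 3, IR29 24 h replicate 2 (24 h) or IR29 48 h replicate 1 or 2 (48 h), with adjusted p up to 0.11 and 0.073. The other two probe sets of HOX19, both dimmer, had the opposite sign and were not called (-0.88 and -0.97 after 24 h, -0.45 and -0.99 after 48 h). HOX17 was never called (changes of -0.98 in IR29 recovery to 0.96 in IR29 after 8 h).

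The class III genes did not move as a block under chilling. HOX32, which is known in rice for effects on leaf rolling and leaf width, rose in LTH from 8 h on. Its LTH values were 51.9, 78.4 and 52.5 in controls, 61.8, 71.2 and 64.5 after 2 h, 135, 191 and 186 after 8 h, 343, 350.5 and 241 after 24 h, 513, 485 and 379.9 after 48 h and 27.5, 71 and 31.1 after recovery. From 8 h to 48 h no LTH array overlapped the controls, and the rise after 48 h was 2.93 ± 0.28 (adjusted p = 8.6e-10).

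IR29 values of HOX32 were 25.4, 32.9 and 36.6 in controls, 23.2, 21.4 and 23.9 after 2 h, 60.5, 44.4 and 56.7 after 8 h, 44, 55.4 and 51.1 after 24 h, 58.8, 63.8 and 88.2 after 48 h and 9.12, 6.02 and 11.9 after recovery. After 2 h the IR29 arrays all lay below their controls (-0.46, adjusted p = 0.27). The highest chilled IR29 array reached 88.2, below every LTH array from 8 h to 48 h. The rise after 48 h was 1.15 (adjusted p = 0.0015), and was short of 2-fold without IR29 control replicate 1 or IR29 48 h replicate 3 (0.97 at the lowest). In IR29 recovery HOX32 fell (-1.85 ± 0.28, adjusted p = 4.5e-06). In the controls HOX32 lay 0.94 higher in LTH (adjusted p = 0.027), short of 2-fold.

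HOX33, linked in rice to the timing of leaf senescence, fell in LTH after 2 h to 48.2, 32.4 and 33.8 against 129, 151 and 103 in the control (-1.75 ± 0.47, adjusted p = 0.0071). At 2 h the summed level of the meristem genes was also lower in LTH than in the control, with OSH1 at 1.57 ± 0.29 against 44.4 ± 20.8 (mean ± SD, n = 3; adjusted p = 0.0097), and all 5 cell division genes were called lower, with sums of 159 to 207 in LTH after 2 h against 653 to 756 in the LTH control. The part of either in the falls of HOX33 and HOX8 at 2 h was not tested. HOX33 was 55.6, 34.8 and 30.3 in IR29 after 2 h against 75.8, 130.5 and 63.6 in the IR29 control, a change of -1.14 that was not called (adjusted p = 0.08).

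In IR29 recovery 3 of the 5 class III genes were lower, HOX32, HOX10 and HOX29, where 11.7% of all probe sets were called lower. HOX10 was 88.7, 69.2 and 54.2 in IR29 recovery against 135, 212 and 132 in the control (-1.17, adjusted p = 0.0075). Its next probe set gave 0.49 there (adjusted p = 0.46), so the 2 probe sets of HOX10 disagreed in sign. HOX29 was 8.99, 7.93 and 9.43 in IR29 recovery against 23.1, 23.1 and 23.8 in the control (-1.41, adjusted p = 0.035). The HOX29 call was lost without any 1 of the 6 arrays (adjusted p up to 0.092), and that of HOX10 without IR29 control replicate 2 or IR29 recovery replicate 3 (up to 0.059). HOX9 was not called in any comparison, with -0.84 in IR29 recovery (adjusted p = 0.02).

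Vascular genes moved with these falls. The summed level of CESA4, CESA7, CESA9 and SUT1 was 30.4 to 44.4 in IR29 recovery against 399.8 to 793 in the IR29 control, and 3 of the 4 were called lower. The summed level of 3 leaf photosynthesis genes was 6423 to 8306 in IR29 recovery against 14170 to 15910 in the IR29 control. In LTH recovery the vascular sum was 295 to 413 against 370.4 to 628 in the LTH control, with none of 4 called. Their part in the falls of the Hox genes in IR29 recovery was not tested.

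HOX10 also rose in IR29 after 8 h (1.08, adjusted p = 0.017) and 48 h (1.12, adjusted p = 0.0086). The 8 h call was lost without replicate 1 or 3 of IR29 control or of IR29 8 h (adjusted p up to 0.079), and the 48 h call without IR29 48 h replicate 3 (adjusted p = 0.075). On those arrays the meristem sum was 274 to 290 after 8 h and 15 to 62.6 after 48 h, against 26.6 to 48.7 in the IR29 control.

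HOX1A, which encodes a homeodomain protein with a PHD finger, was higher at all 4 chilling times in both genotypes, with log2 changes of 0.49 to 0.68 for LTH, and of 0.59 to 0.72 for IR29 (adjusted p at most 0.026). None of these changes reached 2-fold, so none was called. Its values after 8 h were 352, 299 and 434 in chilled LTH against 220.5, 236 and 214 in the LTH control, and 405, 357 and 381 in chilled IR29 against 209.9, 246 and 240.3 in the IR29 control, without overlap in either genotype.

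The genotypes differed in the response of 6 of the 26 Hox genes, by the test of the difference itself (LTH change minus IR29 change), where 17.7% of all probe sets were called at 1 time or more. HOX22 differed at all 5 times, by 1.36 at 2 h, 2.37 at 8 h, 1.53 at 24 h, 1.85 at 48 h and 1.08 in recovery. The adjusted p ran from 5.8e-05 at 8 h to 0.029 in recovery. The calls at 8, 24 and 48 h held whichever array was left out. Those at 2 h and in recovery were each lost in 6 of 12 such fits, with adjusted p up to 0.079 and 0.087. Both were lost without LTH control replicate 1 or 3 or IR29 control replicate 3, the first also without LTH 2 h replicate 2 or IR29 2 h replicate 1 or 2, and the second also without LTH recovery replicate 1 or 2 or IR29 recovery replicate 3.

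By time, 1 Hox gene had a higher change in LTH at 2 h, where of all probe sets 1.19% higher and 0.402% lower (1.59% in all) were called. At 8 h it was again 1, against 2.26% higher and 0.589% lower (2.85% in all). At 24 h 2 were higher, against 4.02% higher and 2.09% lower (6.11% in all), and at 48 h 3, against 5.89% higher and 2.82% lower (8.71% in all). In recovery 4 were higher and 1 lower, against 6% higher and 3.02% lower (9.01% in all).

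HOX32 differed at 24 h (1.69 ± 0.39, adjusted p = 0.0063), 48 h (1.78 ± 0.39, adjusted p = 0.0027) and recovery (1.25, adjusted p = 0.038). The last was lost in 7 of 12 fits without 1 array (replicate 1 or 3 of LTH control, 2 of LTH recovery, 2 or 3 of IR29 control, 1 or 2 of IR29 recovery; adjusted p up to 0.15). It was 0.82 (adjusted p = 0.13) without LTH recovery replicate 2 and the other arrays high in meristem genes. Pairing LTH with IR29 arrays of the same number also ended this call (adjusted p = 0.097). HOX24 differed at 48 h, with 4.59 ± 1.2 (adjusted p = 0.011), with the largest size and the largest SE of the 12 genotype differences called. At 24 h its difference was 3.78 (adjusted p = 0.052).

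In recovery HOX1 (1.38 ± 0.25, adjusted p = 0.00027) and HOX15 (1.15 ± 0.28, adjusted p = 0.0063) had the higher change in LTH. HOX7 had the higher change in IR29 (-1.23 ± 0.33, adjusted p = 0.013), a call lost without IR29 control replicate 3 (adjusted p = 0.065). Of the 12 genotype differences called with all arrays, 11 were positive, and over all probe sets positive ones also outnumbered negative ones at each of the 5 times (3433 against 1728 in recovery). Without the 4 LTH arrays high in meristem genes, 1 was positive and 5 were negative at 8 h, 3 and 3 at each of 24 h and 48 h, and 2 and 2 in recovery. That choice lowered the LTH level of every gene that was highest on those arrays, and no IR29 array was left out. The second probe set of HOX10 was also called, lower, at 2 h (-2.32) and 48 h.

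**Figure D4:**
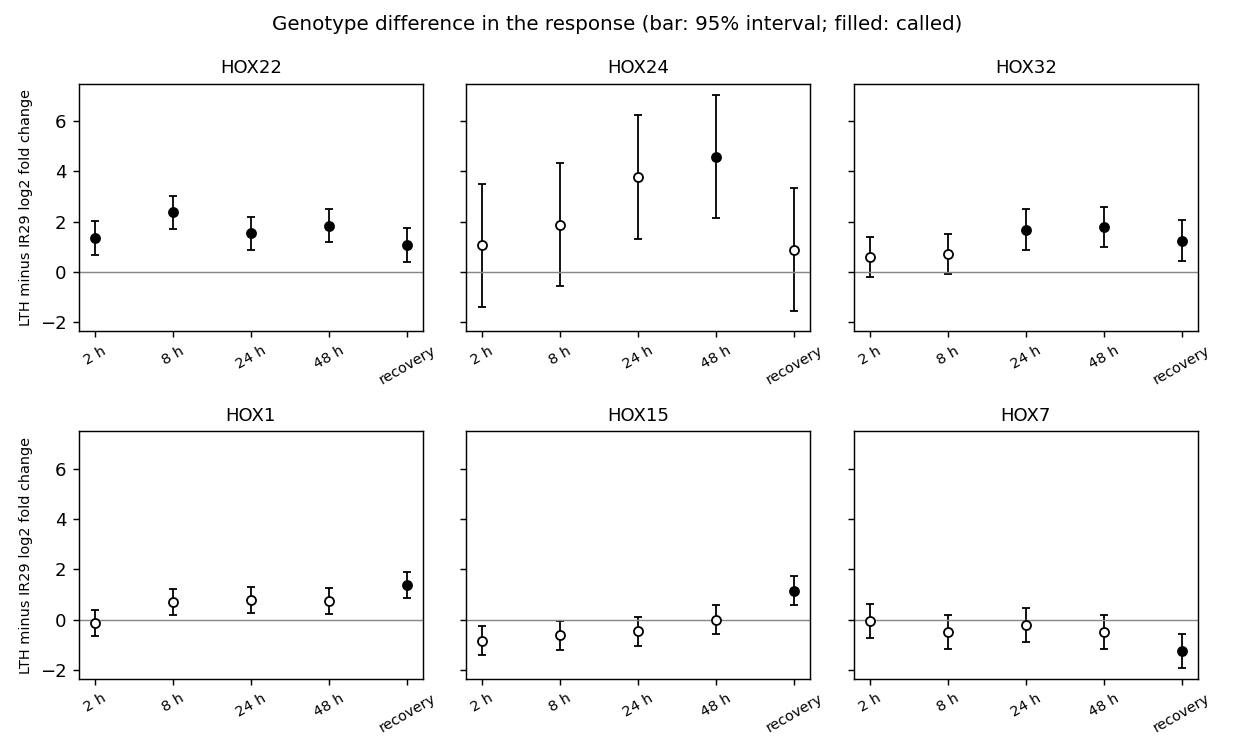
Difference between the genotypes in the response (LTH log2 fold change minus IR29 log2 fold change) of the 6 Hox genes called in this test, by time at 4 °C and in recovery, with 95% intervals and filled points where the difference was called. HOX22 is filled at all 5 times, HOX32 at 24 h, 48 h and recovery, HOX24 at 48 h, and HOX1, HOX15 and HOX7 in recovery.

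A group of Hox genes shared their high arrays with the meristem genes. On all 4 LTH arrays high in meristem genes, HOX12, HOX14, HOX21, HOX2, HOX28, HOX10, HOX33 and HOX1A each had their highest value of the group. HOX2, for example, was 929 on replicate 2 of LTH after 24 h against 55.4 and 44.2 on the others. The array with the highest meristem sum of its group was also the highest for HOX2, HOX21, HOX28, HOX9 and HOX33 in 9 of 12 groups each, for HOX12 and HOX10 in 8, and for HOX16 in 2. How many of all probe sets were highest on the same arrays was not counted, so the pattern cannot be called particular to the Hox genes. Summed levels of 5 cell division genes were 1004 on replicate 3 of LTH after 8 h against 307 and 211 on the others, and 624 on replicate 2 of LTH after 24 h against 252 and 138. On the other two arrays the sums were 419 on replicate 3 of LTH after 48 h against 470 and 293 and 325 on replicate 2 of LTH recovery against 241 and 239. All 3 IR29 arrays after 8 h were high in meristem genes, and the part of this in the rises of HOX12, HOX14, HOX21, HOX2 and HOX10 at that time was not tested. In IR29 recovery HOX12 was at 66.2 to 371 and the meristem sum at 14.1 to 19.

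Leaving out the 4 LTH arrays changed which genotype differences were called. At 8 h 6 Hox genes were then called in place of 1 (1 higher, 5 lower), where of all probe sets 3.27% were higher and 2.46% lower (5.73% in all). Those lower were HOX12, HOX14, HOX2, HOX28 and HOX33, by 1.91 to 3.83 on the log2 scale. These 5 had their highest value of the group on all 4 arrays left out, so the choice of arrays itself lowered their LTH levels. No IR29 array was left out, although all IR29 arrays after 8 h were high in meristem genes. The added negative differences are therefore no separate evidence of a genotype difference. At 24 h 6 were called in place of 2 (3 higher, 3 lower), against 5.62% higher and 5.51% lower (11.1% in all). At 48 h 6 were called in place of 3 (3 higher, 3 lower), against 6.75% higher and 4.51% lower (11.3% in all). In recovery 4 were called in place of 5 (2 higher, 2 lower), against 6.87% higher and 3.92% lower (10.8% in all). HOX22 remained called at 8, 24 and 48 h and HOX32 at 24 and 48 h. Against the LTH control, 6 were then called after 8 h (4 higher and 2 lower, 5 of the 8 remained), where 14.6% of all probe sets were (7.15% higher, 7.44% lower). After 24 h 8 were called (5 higher and 3 lower, all 7 remained), where 23.6% were (10.2% higher, 13.4% lower). After 48 h 10 were called (7 higher and 3 lower, all 8 remained), where 26.4% were (12.3% higher, 14.1% lower). The calls lost after 8 h were HOX12, HOX13 and HOX24.

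**Figure D5:**
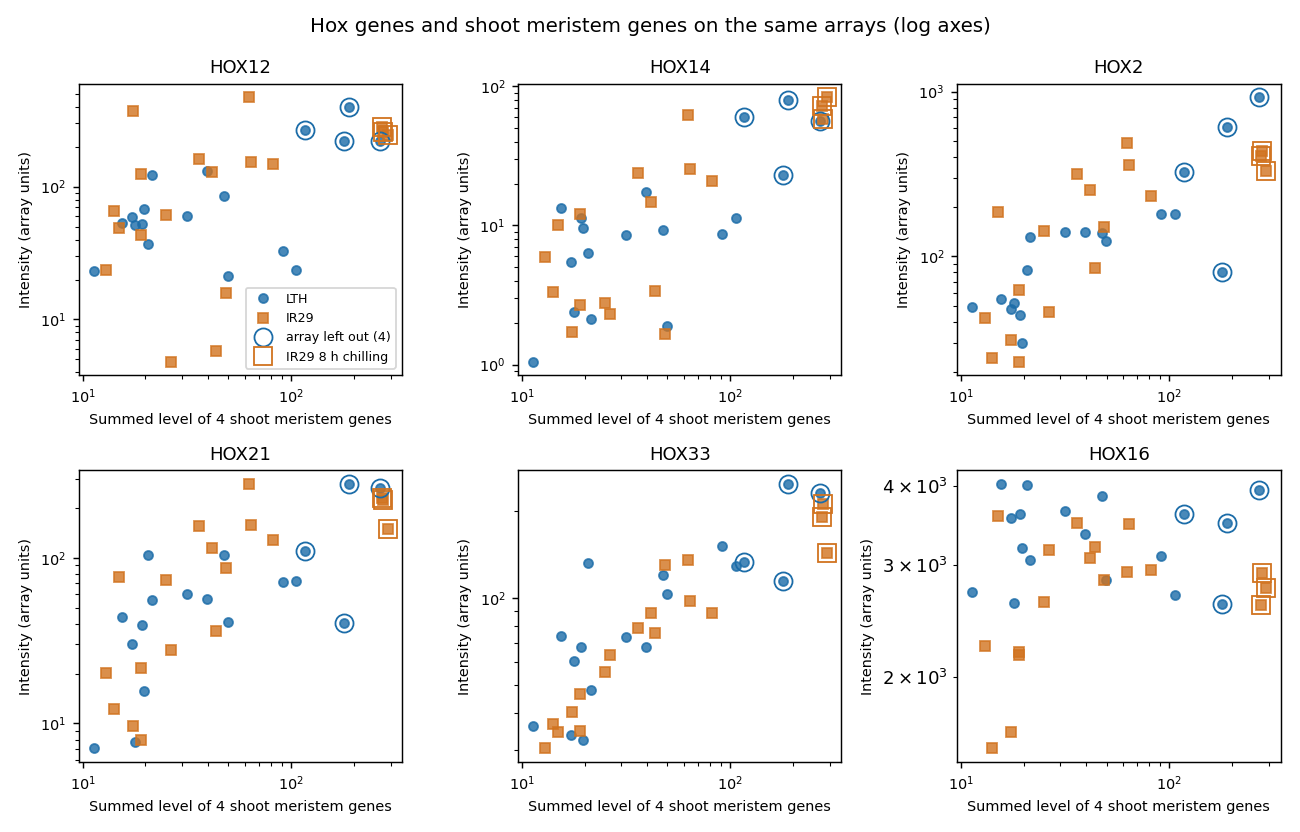
Intensity of HOX12, HOX14, HOX2, HOX21, HOX33 and, for contrast, HOX16 on each of the 36 arrays (y axis) against the summed intensity of 4 shoot meristem genes on the same array (x axis), both on log axes, with LTH in blue circles and IR29 in orange squares. Large open circles mark the 4 LTH arrays left out in the alternative fit, and large open squares the 3 IR29 arrays after 8 h. HOX2 reaches 929 on the LTH array with a meristem sum of 268.

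Other homeobox and ABA genes were set beside the Hox genes. Of 9 HD-Zip class IV genes, 2 were called higher in LTH after 48 h, ROC5 (1.02) and ROC6 (1.17), where 25.5% of all probe sets were called, and 4 in IR29 after 48 h, with ROC3, ROC5 and ROC6 higher and ROC4 lower, where 24.4% were. Of 7 WUSCHEL-related homeobox genes, WOX8 rose in LTH at all 4 times (2.51 after 48 h, adjusted p = 1.8e-09) and in no IR29 chilling comparison. WOX11 (2.24, 44.5 ± 5.24 against 9.62 ± 2.7) and WOX6 (2.08, 16.9 ± 12.8 against 3.51 ± 1.53) rose in IR29 after 8 h, against the IR29 control (mean ± SD of 3 arrays). In IR29 recovery WOX6 (2.82) and WOX8 (1.02) were higher. No WOX gene was called lower in any of the 16 comparisons. The WOX8 response differed between genotypes at 24 h (1.39) and 48 h (1.77, adjusted p = 0.00095).

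Of 19 genes of ABA turnover, signalling and response, 4 were called higher and 2 lower in LTH after 2 h, where 6.99% of all probe sets were higher and 6.62% lower. In IR29 after 2 h 4 were higher and 1 lower, where 7.05% were higher and 9.49% lower. ABA8OX1, which encodes an ABA 8'-hydroxylase, rose in both (LTH 4.97, IR29 3.72), as did the dehydrin gene DHN1 (LTH 2.08, IR29 2.02). The kinase gene SAPK1 differed between the genotypes at all 4 chilling times, with 2.73 at 48 h (adjusted p = 9.8e-07). ABA8OX1 was lower in LTH than in IR29 controls (-1.70, adjusted p = 0.00017).

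Probe design limits some of these values. The probe sets of 10 of the 26 genes carry a suffix (x, s or a) that marks probes shared with other transcripts, among them HOX11, HOX21, HOX7 and HOX15. For the 6 genes with a further probe set, 16 calls were made with the brightest. Their second probe sets had the same call in 9 of these 16 cases, an opposite call in 0 and no call in 7. The sign itself turned in 3 cases, HOX10 in IR29 recovery and HOX19 in IR29 after 24 h and 48 h.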

How the data were processed

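Leaf RNA of 36 rice seedling samples was hybridised to Affymetrix rice arrays, 1 array per sample. The deposited values are linear intensity values per probe set, which the authors produced with GCOS at default settings and normalized with dChip. The values of dim probe sets depend most on that normalization, and the number of arrays limits the precision. Here values were floored at 1 and taken to log2 (20 values lay below 1). A model with 12 group means was fitted to all 57258 probe sets with limma 3.58.1 in R 4.3.3 (lmFit, eBayes with intensity trend). Of the probe sets, 22436 were assigned to 1 gene, 95 to several and 34727 to none; RefSeq tables gave the names. The 16 comparisons were 10 treated groups against their control, the controls against each other and 5 genotype differences in the response. A change was called at a Benjamini-Hochberg adjusted p below 0.05 and at least 2-fold. The rule named HOX22, up to 4 members per HD-Zip class with the largest changes among those called without overlap, and every member called between the controls or between the genotypes' responses. Values of HOX4, HOX5, HOX6, HOX8, HOX13, HOX19, HOX20, HOX28 and HOX1A were added after they were seen. The members and lists were chosen with earlier results of these data known. The replicates came from separate soil plates, and the genotypes shared plates, though which arrays share one is not given in the sources used here. The script was tested on simulated data. Alternatives were quantile normalization, median centring, a raised floor of 3.16, a filter on dim probe sets, eBayes without trend, the replicate number as a block, the methods' t-test, no fold minimum, the next brightest probe set and leaving out each array. Chosen after seeing the data were leaving out the 4 LTH arrays high in meristem genes and a block of same-numbered LTH and IR29 arrays by time.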

Additional observations from a re-analysis of the deposited data

Results flagged for a closer look

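In 12 cases the response of a Hox gene differed between LTH and IR29 by limma's test of the difference itself (LTH change minus IR29 change, log2 scale, 3 arrays per group). HOX22 differed by 1.36 at 2 h, 2.37 at 8 h, 1.53 at 24 h, 1.85 at 48 h and 1.08 in recovery. HOX32 differed by 1.69 at 24 h, 1.78 at 48 h and 1.25 in recovery. HOX24 differed by 4.59 at 48 h. In recovery HOX1 differed by 1.38, HOX15 by 1.15 and HOX7 by -1.23. These share the control arrays of each genotype.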

How the results depend on the processing

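The number of Hox genes called was within 1.5 times the main number in the settings not named here. In LTH recovery (1 called) it was 2 without the 40% dimmest probe sets, 2 with the replicate block, 2 with no fold minimum, and 3 and 0 by the methods' t-test unadjusted and after Benjamini-Hochberg. With no fold minimum it was 7 in IR29 after 2 h and 3 between the controls. The genotype difference at 2 h (1 called) gave 0 without the intensity trend and 2 by the unadjusted t-test. That t-test gave 5 in LTH after 8 h, 3 between the controls, and genotype differences of 4 genes at 8 h and 5 at 24 h. After Benjamini-Hochberg it gave 2, 3 and 4 in LTH after 8, 24 and 48 h, 1 in IR29 at each of the 4 chilling times and 4 in IR29 recovery. The alternative without the 4 LTH arrays high in meristem genes, chosen after seeing the data, gave 6 in LTH recovery and genotype differences of 6 genes at 8, 24 and 48 h. That alternative left out no IR29 array. HOX10 in IR29 recovery turned to 0.49 with its next brightest probe set, and the cause was not tested.

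Without 1 array the number called was 4 to 6, 4 to 7, 5 to 8 and 7 to 9 in LTH after 2, 8, 24 and 48 h and 0 to 3 in LTH recovery. In IR29 it was 1 to 4, 4 to 8, 3 to 8 and 7 to 10 at those times and 7 to 9 in recovery. It was 1 to 2 between the controls, and for the genotype differences 0 to 1 at 2 h, 1 at 8 h, 2 to 4 at 24 h, 3 to 4 at 48 h and 2 to 5 in recovery. Of 79 calls, 46 held in every such fit. Between treated and control arrays of a genotype, and between the controls, replicate numbers did not pair the samples (correlations of deviations -0.216 to 0.123, 3 of 33 above 0.1), and the replicate block changed the number called to 2 in LTH recovery (from 1), 4 in IR29 after 2 h (from 3), 11 in IR29 recovery (from 10) and 3 for the genotype difference at 24 h (from 2). LTH and IR29 arrays of the same number and time correlated at -0.056 to 0.276, with all 3 pairs above 0.1 at 1 of 6 times, 2 h (0.276, 0.11 and 0.135). With these as a replicate block by time, an alternative chosen after seeing the data, the genotype differences called were 1 at 2 h, 3 at 8 h (HOX4 and HOX6 added to HOX22), 3 at 24 h (HOX24 added), 4 at 48 h (HOX6 added) and 4 in recovery, where HOX32 was lost, and HOX22 between the controls remained called.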

Other observations

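Second probe sets gave some changes that the brightest did not. The second probe set of HOX5 was called higher after 48 h in LTH (1.33) and in IR29 (1.17), and that of HOX16 was called lower in IR29 recovery (-1.35). The second probe set of HOX16 also differed between the genotypes in recovery (1.22, adjusted p = 2e-04). The second probe set of HOX10 was called higher in IR29 at all 4 chilling times than in the IR29 control, by 1.5 after 2 h and by 2.3 to 2.79 at the later times. Its genotype difference was negative and called after 2 h (-2.32, adjusted p = 0.049) and after 48 h (-2, adjusted p = 0.036). The third probe set of HOX19 was called lower in LTH after 48 h (-1.90, adjusted p = 0.038).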
